A study of Mus musculus with 10 samples.

Results

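The genes described here form the core of JAK-STAT signaling and its SOCS feedback, and they are 10 of the 55421 genes in the count table. They are the feedback inhibitors Socs1, Socs2, Socs3 and Cish, the kinase Jak2, the transcription factors Stat3, Stat5a and Stat5b, and the target genes Pim1 and Bcl6. They were chosen by symbol, as the rows whose Ensembl identifier carries one of these names in the GRCm38 annotation. All 10 were found, and all 10 passed the filter on low counts in every comparison.

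Cytokines such as GM-CSF, G-CSF, IL-6 and IL-10 bind receptors that have no kinase domain of their own and that carry Janus kinases (JAKs) on their inner side. The kinases phosphorylate the receptor and STAT proteins, which pair up, enter the nucleus and bind a palindromic DNA motif near their target genes. SOCS proteins and CIS, the product of Cish, are made in response to STATs and block the receptor or the kinase, which closes a negative feedback loop. In myeloid cells, STAT3 transmits the signals of G-CSF, IL-6 and IL-10, and STAT5 that of GM-CSF. SHP-2, the phosphatase encoded by Ptpn11, binds several of these receptors, and on gp130, the shared receptor of the IL-6 family, it binds the same phosphotyrosine as SOCS3.

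RNA sequencing was performed on 2 cell types and 2 genotypes of mice, 15 days after MC17-51 fibrosarcoma cells had been implanted under the skin. Shp2f/f mice carry floxed Ptpn11 alleles and no Cre, and served as controls. Shp2f/fLysMcre mice carry the same floxed alleles plus Cre recombinase driven by the lysozyme M (Lyz2) promoter, which is active in neutrophils, monocytes and macrophages, so a deletion need not be complete in every cell. The comparison addresses which transcripts change in myeloid cells in which Cre targets Ptpn11. Myeloid-derived suppressor cells (MDSC) were isolated from the spleen with magnetic beads, and tumor-associated macrophages (TAM) were sorted from the collagenase-digested tumor of the same animals. There were 2 MDSC libraries and 3 TAM libraries for each genotype. The mice were young adults, and neither a sequencing batch nor the number of mice behind a library was given in the sources used here, so p-values measure the spread between these libraries.

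Total counts were between 28844660 and 38222998 per library. Levels are given as CPM, the counts of a gene relative to the library total, with library totals scaled by TMM, the trimmed-mean factors of edgeR, over all 10 libraries. Ptpn11, the targeted gene, was at 121, 125 and 121 CPM in the TAM Shp2f/f libraries and at 50.9, 54.2 and 53.9 CPM in the TAM Shp2f/fLysMcre libraries. In MDSC it was at 113 and 99.2 CPM in Shp2f/f and at 94.8 and 79.7 CPM in Shp2f/fLysMcre. The difference passed the test in TAM (log2 fold change -1.244, SE 0.0386, edgeR adjusted p = 2.96e-09) and not in MDSC (-0.29, SE 0.143, edgeR adjusted p = 0.361). Counts cover the whole gene, so transcript of the deleted allele can still be counted. Lyz2, where Cre is inserted, was at 3437 to 9463 CPM in the Shp2f/f libraries and at 9.38 to 47.1 CPM in the Shp2f/fLysMcre libraries. The loss of Lyz2 transcript and the presence of Cre thus go with genotype and cannot be told apart from the targeting of Ptpn11.

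Markers of other cells and of handling were summed per library over fixed lists, as CPM of the total count. MDSC libraries held 8961 to 26392 CPM of 9 neutrophil markers and 8403 to 11199 CPM of 6 monocyte markers. Ly6g, which encodes the antigen of the described Ly6G+ gate, was at 9.20 to 34.1 CPM in MDSC, while Ccr2 of monocytes was at 1320 to 2033 CPM and Csf1r of monocytes and macrophages at 1126 to 1487 CPM. Ly6g was thus low beside these markers, but every other gene of the neutrophil list was higher than Ly6g in MDSC. S100a8 (3376 to 9292 CPM) and S100a9 (3305 to 10923 CPM) were above Ccr2 and Csf1r. Cxcr2 (112 to 273 CPM) and Retnlg (191 to 279 CPM) were below them. The group is called MDSC by its label. TAM libraries held 13164 to 21307 CPM of 9 macrophage markers, and all 9 were detected in every TAM library. In MDSC, the neutrophil sum was 8961 to 9044 CPM in Shp2f/f and 23825 to 26392 CPM in Shp2f/fLysMcre. MDSC Shp2f/fLysMcre replicate 2 stood apart with 530.4 CPM of 8 fibroblast and tumor stroma markers, against 10.5 to 29.0 CPM in the other 3 MDSC libraries. TAM Shp2f/f replicate 3 held 6705 CPM of 6 pancreatic islet markers, against 849 to 1293 CPM in the other TAM Shp2f/f libraries and 5.79 to 74.1 CPM in TAM Shp2f/fLysMcre. The summed CPM of 4 Y-linked genes was 185 to 200.3 in the Shp2f/f libraries and 74.3 to 84.3 in the Shp2f/fLysMcre libraries. Xist was at 0.0298 to 18.5 CPM and 130.2 to 350.4 CPM in the same order. The sex of the mice thus cannot be told apart from genotype. Every Shp2f/fLysMcre library held both Xist and Y-linked transcripts, as a mix of male and female cells would. A library therefore cannot be taken as a single mouse. In bulk libraries such as these, fewer cells of a type and less RNA per cell cannot be told apart.

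**Figure D1:**
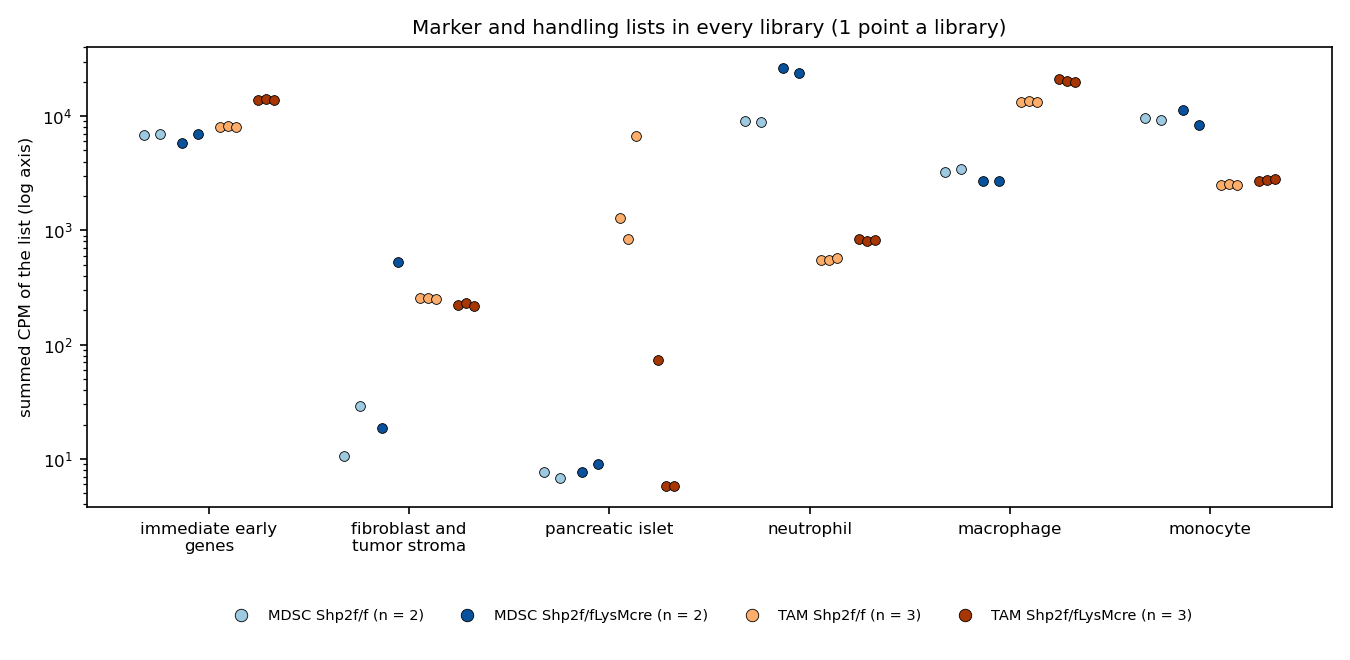
Summed CPM of 6 gene lists on a log axis, with 1 point for each of the 10 libraries, colored by group. The immediate early list is higher in all 3 TAM Shp2f/fLysMcre libraries (13717 to 14071 CPM) than in TAM Shp2f/f (7970 to 8172 CPM), and MDSC Shp2f/fLysMcre replicate 2 is alone among MDSC libraries in its stroma signal.

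The motif that STAT dimers bind, TTCNNNGAA, which reads the same on both strands, was looked up in the RefSeq promoter windows (GRCm38.p6) that run from 250 bases before to 50 bases after each annotated start. Windows were present for 9 of the 10 genes, 13 windows in all. A match was found in 3 of the 9 genes, namely Socs3, Cish and Bcl6, while 9.55% of the 27025 genes with a window and 8.30% of the 32851 windows had one. The Cish window held 2 matches and 1 of the Bcl6 windows held 3, where 0.460% of all windows held at least 2. The stretches with these matches are printed because they belong to genes whose expression is described below. Capitals mark each match, the sequence runs 5′ to 3′ on the strand of the gene, and position 0 is the start.
Socs3, chr11:117969482-117969550, minus strand, within an intron of Socs3: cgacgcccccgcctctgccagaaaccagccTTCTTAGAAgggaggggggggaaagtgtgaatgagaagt
Cish, chr9:107296654-107296683, plus strand, in an exon of Cish: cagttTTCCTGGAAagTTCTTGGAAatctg
Bcl6, first window, chr16:23988932-23989000, minus strand, between genes: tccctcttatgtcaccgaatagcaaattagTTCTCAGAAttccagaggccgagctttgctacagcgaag
Bcl6, second window, chr16:23981333-23981481, minus strand, within an intron of Bcl6: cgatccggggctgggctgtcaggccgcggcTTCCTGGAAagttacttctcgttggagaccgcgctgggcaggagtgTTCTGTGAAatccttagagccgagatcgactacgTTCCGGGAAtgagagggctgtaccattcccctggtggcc
The Socs3 match began at position -154. The Cish matches began at positions 0 and 11, so only 2 bases lay between them. Those of Bcl6 began at -118 in the first window and at -168, -122 and -88 in the second. A match describes these letters only, and no match in the other windows says nothing about binding elsewhere.

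The 4 inhibitors, the kinase, the 3 STATs and the 2 targets covered a wide range of levels. Per kilobase of exon, which allows levels of different genes to be compared, Pim1 was the highest of the 10 genes in every group, at 191 CPM per kb in MDSC Shp2f/f, 179 in MDSC Shp2f/fLysMcre, 202 in TAM Shp2f/f and 284 in TAM Shp2f/fLysMcre. Socs3 was second in every group, at 111, 81.1, 149 and 265 CPM per kb in the same order, and Stat3 came next, at 46.3, 42.0, 32.3 and 43.5 CPM per kb. Socs2 was last in every group, at 0.0972 to 0.840 CPM per kb. Among the inhibitors, Socs3 was thus the abundant one in these myeloid cells, and it exceeded 96.4% to 99.0% of the genes that passed the filter. Socs2 exceeded 13.1% to 33.8% of them.

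**Figure D2:**
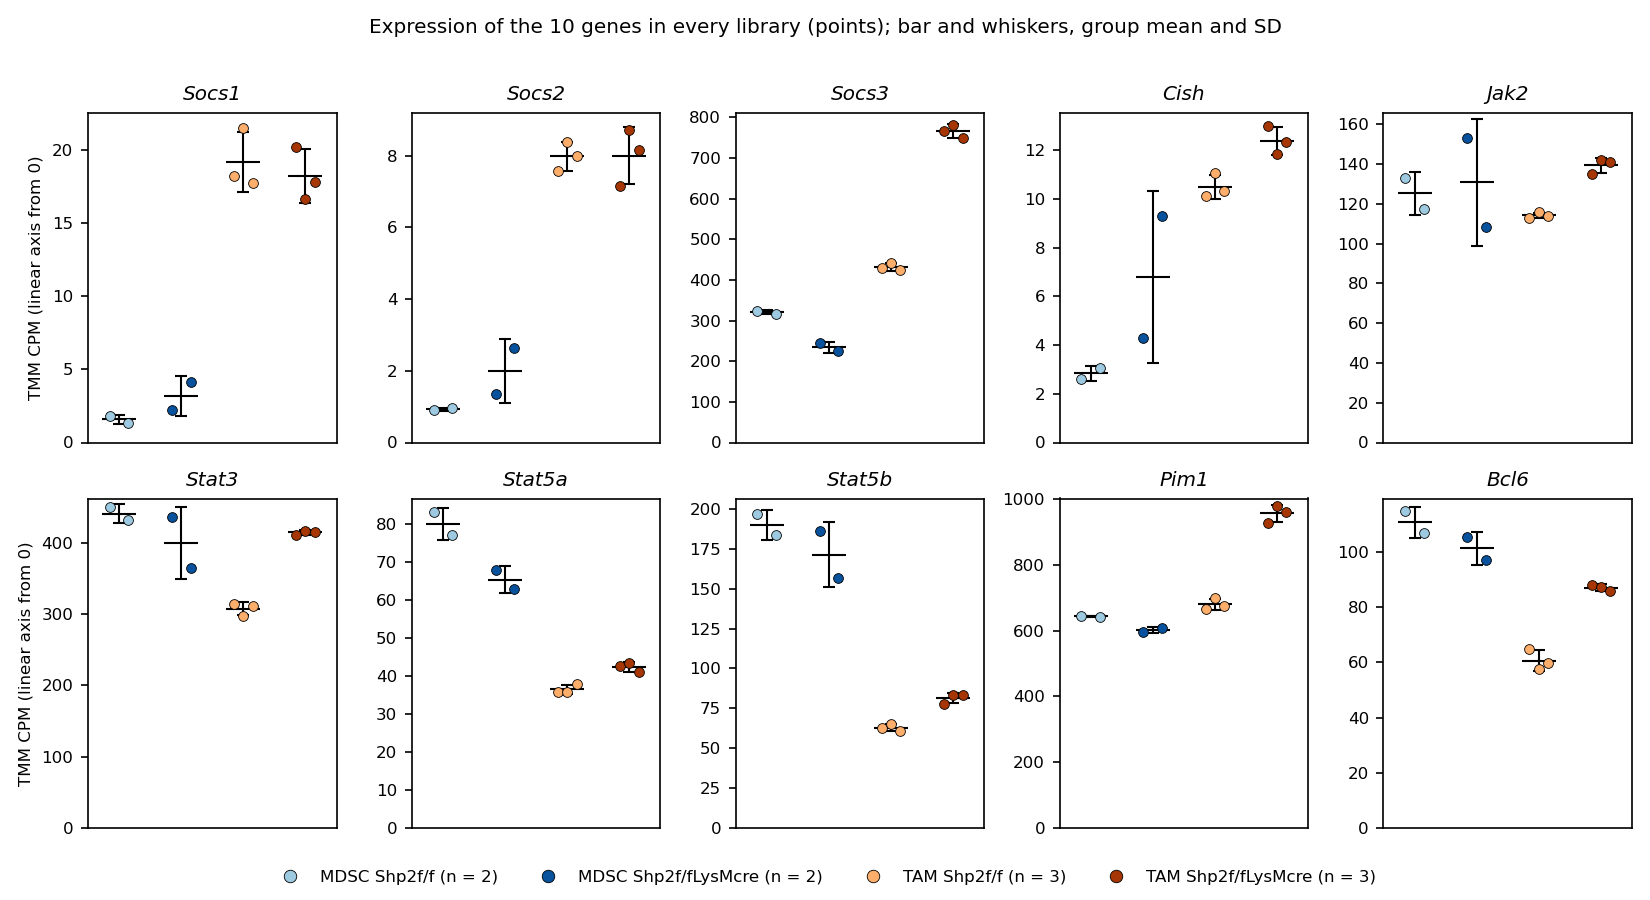
TMM-scaled CPM of each gene on a linear axis from 0, with 1 point per library, a bar at the group mean and whiskers of 1 SD, for MDSC (blue) and TAM (orange). Socs3, Stat3, Pim1 and Bcl6 have no overlap between the TAM genotypes, while Socs1 and Socs2 are separated by cell type and overlap between the TAM genotypes.

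Between the genotypes, 8 of the 10 genes were called in TAM, all of them higher in Shp2f/fLysMcre (edgeR quasi-likelihood F test, p adjusted by the Benjamini-Hochberg (BH) method over all genes and under 0.05). The TAM comparison called 50.2% of all 14446 genes tested, 23.9% higher and 26.3% lower. The 8 were Socs3, Cish, Jak2, Stat3, Stat5a, Stat5b, Pim1 and Bcl6, and the median log2 fold change of the 10 genes was 0.30, beside -0.01 for all genes tested. Values of 8 of the 10 did not overlap between the TAM genotypes, as for 57.9% of all genes. In MDSC, 0 of the 10 genes were called, where 4.28% of 14806 genes were (3.76% higher). The MDSC counts were 5 of 10 at an unadjusted p under 0.05 in edgeR, where 19.3% of all genes were, and 1 of 10 by DESeq2, which called 1216 genes, and 7 of 10 genes had no overlap, as had 48.9% of all genes. With scaling by total counts, which moved the TAM median log2 fold change of all genes from -0.01 to -0.11 and the share of called genes that were higher from 47.6% to 30.9%, 6 of the 10 genes were called in TAM, all higher, with a median of 0.20.

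**Figure D3:**
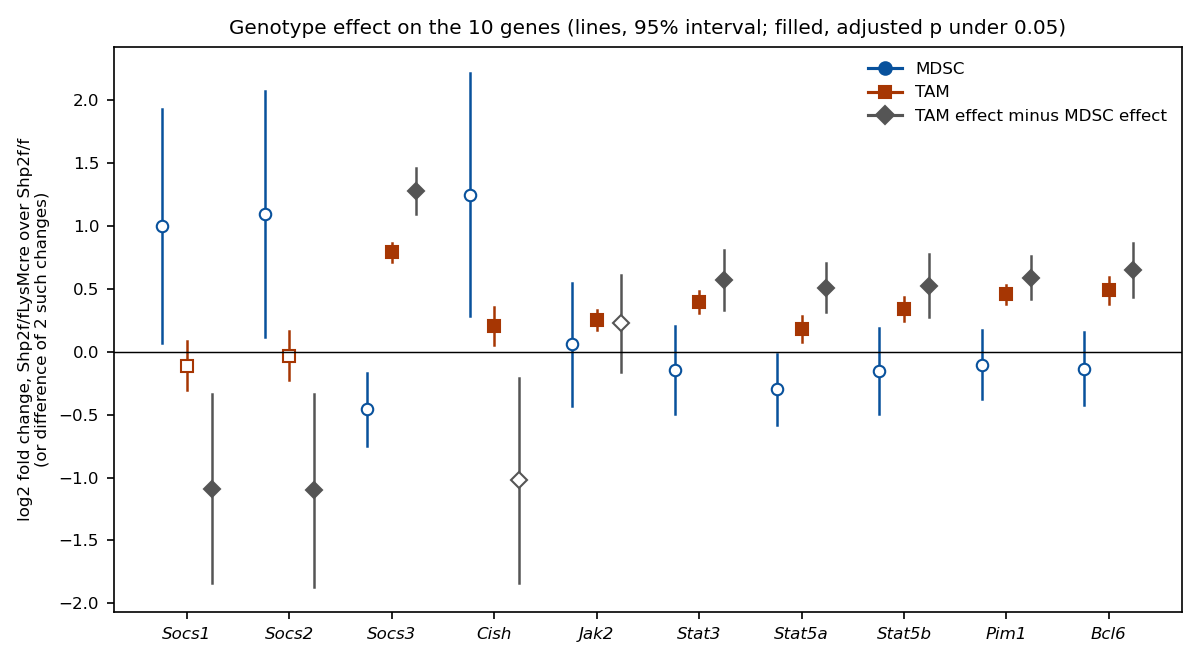
Log2 fold change of Shp2f/fLysMcre over Shp2f/f for each gene in MDSC (circles) and TAM (squares), and the TAM effect minus the MDSC effect (diamonds), with 95% intervals; filled symbols passed at an adjusted p under 0.05. The MDSC intervals are wide, such as 0.28 to 2.22 for Cish, while that of Socs3 in TAM is 0.71 to 0.87.

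Socs3 (ENSMUSG00000053113, chr11:117966079-117970047, minus strand) encodes the inhibitor of gp130 and G-CSF receptor signaling. In TAM it was at 430.1, 442 and 424 CPM in Shp2f/f and at 767, 782 and 749.5 CPM in Shp2f/fLysMcre. Every Shp2f/fLysMcre library was above every Shp2f/f library, and the gap between the genotypes was far larger than the SD within them (9.42 and 16.3 CPM). The log2 fold change was 0.79 (SE 0.0348, edgeR adjusted p = 3.07e-08), a rise of 1.73-fold, and the call held in 6 of 6 fits without 1 library. In MDSC, Socs3 was at 324 and 317 CPM in Shp2f/f and at 244 and 225 CPM in Shp2f/fLysMcre. There the Shp2f/fLysMcre libraries were the lower ones, without overlap, and the log2 fold change of -0.46 (SE 0.117) missed the threshold (edgeR adjusted p = 0.108), although DESeq2 called it (BH-adjusted p = 0.00497). It was called without MDSC Shp2f/fLysMcre replicate 1 (edgeR adjusted p = 0.0119) and without MDSC Shp2f/fLysMcre replicate 2 (edgeR adjusted p = 0.0159), but not without Shp2f/f replicate 1 (edgeR adjusted p = 0.934) or Shp2f/f replicate 2 (edgeR adjusted p = 0.963). Those 4 fits called 4406, 2729, 1 and 1 of all genes, in the same order.

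Cish (ENSMUSG00000032578, chr9:107296026-107302784, plus strand) encodes CIS, which acts mainly on receptors that signal through STAT5. In TAM it was at 10.1, 11.1 and 10.3 CPM in Shp2f/f and at 13, 11.9 and 12.3 CPM in Shp2f/fLysMcre. The genotypes did not overlap, but the step was small, with a change of 0.20 on the log2 scale (SE 0.0675, edgeR adjusted p = 0.0269). The Cish call in TAM held in 3 of 6 fits without 1 library, and was lost without TAM Shp2f/f replicate 1, TAM Shp2f/f replicate 3 or TAM Shp2f/fLysMcre replicate 1, with total-count scaling (edgeR adjusted p = 0.204) and with DESeq2 (adjusted p = 0.150). In MDSC it was at 2.61 and 3.06 CPM in Shp2f/f and at 4.28 and 9.30 CPM in Shp2f/fLysMcre. Replicate 2 of the last group was the highest, and it is the library with the stroma signal, whose part in this value was not tested. The MDSC log2 fold change was 1.25 (SE 0.388, edgeR adjusted p = 0.165) and 0.60 without that library (edgeR adjusted p = 0.0565). Without replicate 1 of that group it was 1.67 and called (edgeR adjusted p = 0.00255), and without either Shp2f/f library it was not called.

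Socs1 (ENSMUSG00000038037, chr16:10782240-10785536, minus strand) encodes an inhibitor that binds JAKs directly and restrains interferon signals. It was at 18.3, 21.5 and 17.7 CPM in TAM Shp2f/f and at 20.2, 16.6 and 17.8 CPM in TAM Shp2f/fLysMcre. The 2 sets overlapped, and the log2 fold change of -0.11 (95% interval -0.30 to 0.08) missed the threshold (edgeR adjusted p = 0.321). In MDSC, Socs1 was at 1.80 and 1.36 CPM in Shp2f/f and at 2.22 and 4.14 CPM in Shp2f/fLysMcre, which are 47 to 165 counts. Replicate 2 was again the highest, and the log2 fold change of 1.0 (SE 0.371, edgeR adjusted p = 0.229) was 0.50 without it (edgeR adjusted p = 0.236). It was called, at 1.34, without replicate 1 (edgeR adjusted p = 0.0133) and not without either Shp2f/f library.

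Socs2 (ENSMUSG00000020027, chr10:95385362-95417180, minus strand) encodes the inhibitor known for its action on growth hormone signaling. Its TAM levels were 7.58, 8.37 and 7.99 CPM in Shp2f/f and 7.15, 8.70 and 8.16 CPM in Shp2f/fLysMcre. The Shp2f/f values lay within the range of the Shp2f/fLysMcre values, with a log2 fold change of -0.03 (95% interval -0.23 to 0.16, edgeR adjusted p = 0.794). MDSC held 31 to 105 counts of Socs2, at 0.900 and 0.953 CPM in Shp2f/f and 1.36 and 2.63 CPM in Shp2f/fLysMcre. As for Cish and Socs1, replicate 2 was the highest, and the log2 fold change went from 1.09 (SE 0.390, edgeR adjusted p = 0.216) to 0.55 without it (edgeR adjusted p = 0.288). Socs2 too was called without replicate 1, at 1.46 (edgeR adjusted p = 0.0111), and not without either Shp2f/f library.

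Jak2 (ENSMUSG00000024789, chr19:29251828-29313080, plus strand) encodes the kinase used by the receptors of GM-CSF, IL-3 and erythropoietin. In TAM it was at 113, 116 and 114 CPM in Shp2f/f and at 135, 142 and 141 CPM in Shp2f/fLysMcre, without overlap. It rose by 0.25 on the log2 scale (SE 0.0363, edgeR adjusted p = 1.61e-04), and the call was lost in a fit of all 10 libraries together (edgeR adjusted p = 0.0756). In MDSC it was at 133 and 117 CPM in Shp2f/f, inside the 153 and 108 CPM of Shp2f/fLysMcre, and its log2 fold change of 0.06 (95% interval -0.43 to 0.55) turned negative without MDSC Shp2f/f replicate 2 or without MDSC Shp2f/fLysMcre replicate 1.

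Stat3 (ENSMUSG00000004040, chr11:100885098-100939540, minus strand) had the highest level of the 3 STAT genes, and encodes the factor that answers IL-6, IL-10 and G-CSF. In TAM it was at 315, 297 and 311 CPM in Shp2f/f and at 411, 417 and 416 CPM in Shp2f/fLysMcre. The Shp2f/fLysMcre libraries had an SD of 2.89 CPM and lay above all Shp2f/f libraries, with a change of 0.39 on the log2 scale (SE 0.0393, edgeR adjusted p = 9.71e-06). MDSC Stat3 was at 451 and 432 CPM in Shp2f/f and at 436 and 364 CPM in Shp2f/fLysMcre, which overlapped, with a log2 fold change of -0.15 (95% interval -0.49 to 0.20). Its exons share 72 bases with those of the neighboring Stat5a on the opposite strand, and the counting setting for strand was not given in the sources used here.

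Stat5a (ENSMUSG00000004043, chr11:100859351-100885169, plus strand) and Stat5b (ENSMUSG00000020919, chr11:100780731-100850724, minus strand) are neighboring paralogs, and reads that match both may have been split or lost in counting. Stat5a in TAM was at 35.9, 35.7 and 37.9 CPM in Shp2f/f and at 42.7, 43.5 and 41.1 CPM in Shp2f/fLysMcre. It rose by 0.18 on the log2 scale (SE 0.0459, edgeR adjusted p = 0.00646), a call that total-count scaling ended (edgeR adjusted p = 0.133). Stat5b in TAM went from 62.8, 65.0 and 60.6 CPM to 77.8, 83.4 and 83.3 CPM, and rose by 0.34 (SE 0.0431, edgeR adjusted p = 6.06e-05). In neither gene did the TAM genotypes overlap. In MDSC, Stat5a was at 83.1 and 77.1 CPM in Shp2f/f and 67.9 and 62.9 CPM in Shp2f/fLysMcre, and Stat5b was at 197 and 183 against 186 and 157 CPM. The MDSC values of Stat5a did not overlap, yet its log2 fold change of -0.30 (SE 0.112) missed the threshold (edgeR adjusted p = 0.234). The -0.15 of Stat5b missed it too (edgeR adjusted p = 0.636).

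Pim1 (ENSMUSG00000024014, chr17:29490753-29496112, plus strand) encodes a survival kinase that is a classic target of STAT3 and STAT5. In TAM it was at 667, 698 and 674 CPM in Shp2f/f and at 928, 979 and 959.8 CPM in Shp2f/fLysMcre. All 3 Shp2f/fLysMcre libraries were higher, by a log2 fold change of 0.46 (SE 0.0351, edgeR adjusted p = 1.40e-06). MDSC values were 645 and 642 CPM in Shp2f/f and 595 and 608 CPM in Shp2f/fLysMcre, lower without overlap, but the log2 fold change of -0.10 missed the threshold (edgeR adjusted p = 0.695). An antisense gene that shares 488 exonic bases with Pim1 had 14 to 31 counts per library, beside at least 21973 for Pim1.

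Bcl6 (ENSMUSG00000022508, chr16:23965052-23988852, minus strand) encodes a transcriptional repressor that STAT5 lowers and STAT3 raises in lymphocytes. In TAM it was at 64.8, 57.6 and 59.7 CPM in Shp2f/f and at 88.2, 87.5 and 85.8 CPM in Shp2f/fLysMcre. The rise of 0.49 on the log2 scale (SE 0.0482, edgeR adjusted p = 9.19e-06) came second among the 10 genes, after Socs3. In MDSC it was at 115 and 107 CPM in Shp2f/f and at 106 and 97.1 CPM in Shp2f/fLysMcre. These 2 pairs lay next to each other without overlap, with a log2 fold change of -0.14 (95% interval -0.43 to 0.16).

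The TAM rises went together with a list of 13 genes that respond to tissue digestion and handling, called the immediate early list here. It holds immediate early genes such as Fos, and also the heat shock genes Hspa1a and Hspa1b. All 13 were called higher in TAM Shp2f/fLysMcre, where 23.9% of all genes were, with a median log2 fold change of 0.91. Their summed level was 7970 to 8172 CPM in Shp2f/f and 13717 to 14071 CPM in Shp2f/fLysMcre. In MDSC none of the 13 was called by the edgeR quasi-likelihood test, which called 4.28% of all genes. The MDSC sums were 6815 to 6965 CPM in Shp2f/f and 5830 to 6917 CPM in Shp2f/fLysMcre. The macrophage sum moved the same way in TAM, at 13164 to 13617 CPM in Shp2f/f and 19767 to 21307 CPM in Shp2f/fLysMcre. So did the neutrophil sum, at 551 to 577 CPM and 814 to 842 CPM, and the sum of 6 B cell markers, at 4.21 to 4.62 CPM and 9.67 to 10.6 CPM. Sums of 7 T cell markers (11.7 to 13.8 CPM and 6.0 to 6.25 CPM), 6 NK cell markers (12.9 to 14.4 CPM and 3.08 to 4.4 CPM) and 8 erythroid markers (399 to 435 CPM and 171 to 183 CPM) were lower in TAM Shp2f/fLysMcre. The part of handling and of cell composition in the rises of the 8 genes was not tested. Without TAM Shp2f/f replicate 3, the library with the most islet signal, 7 of the 10 genes were called in TAM, all higher, and Cish was the one lost.

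Whether the genotype effect differed between the cell types was tested as an interaction over all 10 libraries. It was called for 8 of the 10 genes, where 24.9% of 16581 genes were called, 12.2% more positive in TAM and 12.7% more negative. The effect was more positive in TAM for 6 genes, led by Socs3 with a difference of 1.28 on the log2 scale (SE 0.0825, edgeR adjusted p = 1.34e-05). Bcl6 (0.65, SE 0.0957), Pim1 (0.59, SE 0.0770), Stat3 (0.57, SE 0.107), Stat5b (0.53, SE 0.112) and Stat5a (0.51, SE 0.0873) followed. Their adjusted p in edgeR ran from 5.10e-04 for Pim1 to 0.00780 for Stat5b. Each of the 6 calls held in 10 of 10 fits without 1 library and with total-count scaling, which moved the share of called genes that were more positive from 49.1% to 28.3%.

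For Socs1 and Socs2 the effect was more negative in TAM, by -1.09 (SE 0.334, edgeR adjusted p = 0.0407) and -1.10 (SE 0.341, edgeR adjusted p = 0.0416). These 2 calls rested on the low MDSC counts described above. They held in 1 of 10 fits without 1 library, which was the fit without MDSC Shp2f/fLysMcre replicate 1, and without replicate 2 of that group the differences were -0.57 for Socs1 and -0.55 for Socs2. With voom weights per cell type, an alternative that lets MDSC libraries be noisier than TAM libraries, neither was called (limma, BH-adjusted p = 0.249 and 0.211). Cish (-1.02, SE 0.363, edgeR adjusted p = 0.0671) and Jak2 (0.22, SE 0.171, edgeR adjusted p = 0.377) did not pass. Cish was called, more negative in TAM, with DESeq2, with total-count scaling and without a filter on low counts. Those fits called 4574, 4366 and 3804 of all genes, in the same order. Cish was not called with DESeq2 size factors in edgeR, with a filter of 1 CPM or with voom. Leaving out MDSC Shp2f/fLysMcre replicate 1 gave calls for all 10 genes, 7 more positive and 3 more negative, in a fit that called 7023 genes against 4132 with all libraries, and leaving out any other single library gave 6, all more positive.

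In Shp2f/f, the 4 inhibitors were higher in TAM than in MDSC, while the STATs and Bcl6 were lower. There, 4 of the 10 genes were called higher in TAM, where 35.1% of 16581 genes were, and 4 were called lower, where 34.6% were. Socs1 had the largest difference, a log2 fold change of 3.60 (SE 0.258), followed by Socs2 (3.10, SE 0.264), Cish (1.89, SE 0.274) and Socs3 (0.43, SE 0.0587), with BH-adjusted p of at most 1.70e-04 (edgeR quasi-likelihood). Lower in TAM were Stat5b (-1.60, SE 0.0781), Stat5a (-1.13, SE 0.0609), Bcl6 (-0.87, SE 0.0669) and Stat3 (-0.52, SE 0.0750), with BH-adjusted p of at most 1.61e-04 (edgeR quasi-likelihood). Jak2 (-0.13, edgeR adjusted p = 0.346) and Pim1 (0.08, edgeR adjusted p = 0.218) did not pass. The 8 calls held in all 10 fits without 1 library and under every alternative tried. Spleen and tumor, bead isolation and sorting, and the presence of a digestion step all go with cell type and cannot be told apart from it.

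In Shp2f/fLysMcre, 5 genes were higher in TAM, where 32.3% of all genes were, and 3 were lower, where 36.6% were. Socs1 (2.51, SE 0.234), Socs2 (2.0, SE 0.240), Socs3 (1.71, SE 0.0618) and Cish (0.86, SE 0.253) were higher as in Shp2f/f, and Pim1 was higher too (0.67, SE 0.0554), with BH-adjusted p of at most 0.0118 (edgeR quasi-likelihood). Stat5b (-1.07, SE 0.0779), Stat5a (-0.62, SE 0.0612) and Bcl6 (-0.22, SE 0.0672) were lower, with BH-adjusted p of at most 0.0155 (edgeR quasi-likelihood). Stat3 was not called, at 0.05 (SE 0.0757, edgeR adjusted p = 0.559), and its sign as well as that of Jak2 turned with total-count scaling, under which the share of called genes that were higher went from 46.8% to 36.6%. The Cish call was lost with total-count scaling (edgeR adjusted p = 0.0532) and in a fit of the 5 Shp2f/fLysMcre libraries alone (edgeR adjusted p = 0.0546). That of Bcl6 was lost without MDSC Shp2f/fLysMcre replicate 1 (edgeR adjusted p = 0.0960), without a filter on low counts (edgeR adjusted p = 0.0797) and with DESeq2 (adjusted p = 0.0558).

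Ordered over the 4 groups, Socs3, Pim1 and Cish were highest in TAM Shp2f/fLysMcre and TAM Shp2f/f came next, with no overlap between neighbors in the order. Mean Socs3 was 766 ± 16.3 CPM in TAM Shp2f/fLysMcre and 432 ± 9.42 CPM in TAM Shp2f/f (SD, n = 3 each), then 320.5 ± 4.73 CPM in MDSC Shp2f/f and 234 ± 13.7 CPM in MDSC Shp2f/fLysMcre (SD, n = 2 each). Stat5a and Bcl6 had another order, with both MDSC groups above both TAM groups, MDSC Shp2f/f highest, TAM Shp2f/f lowest and no overlap between neighbors. Stat5b had that order too, but its MDSC groups overlapped. For Stat3, MDSC Shp2f/f was highest at 441 ± 13.4 CPM (SD, n = 2) and TAM Shp2f/f lowest at 308 ± 9.06 CPM (SD, n = 3), while TAM Shp2f/fLysMcre and MDSC Shp2f/fLysMcre overlapped. For Jak2, TAM Shp2f/f had the lowest mean, but its libraries lay within the range of MDSC Shp2f/fLysMcre, and the other 3 groups overlapped in order. Socs1 and Socs2 were highest in TAM, where the genotypes overlapped, and lowest in MDSC Shp2f/f.

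The rest of the pathway was read from 7 lists with 75 genes. In TAM, 69 of them were tested, and 46 were called higher, 7 lower and 16 neither, with a median log2 fold change of 0.27. Over all genes tested in TAM, 23.9% were called higher and 26.3% lower, with a median of -0.01. With total-count scaling the counts were 37 higher, 9 lower and 23 neither, with a median of 0.17. That scaling called 2342 of all genes higher and 5227 lower, with a median of -0.11. In MDSC, 66 were tested and 2 were called, both higher, where 4.28% of all genes were called. Total-count scaling kept 1 of these 2. The interaction was called for 42 of the 72 genes tested, 34 more positive and 8 more negative in TAM. It was called for 24.9% of all genes, 12.2% more positive and 12.7% more negative. The same shares stand beside the counts of the single lists below.

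**Figure D4:**
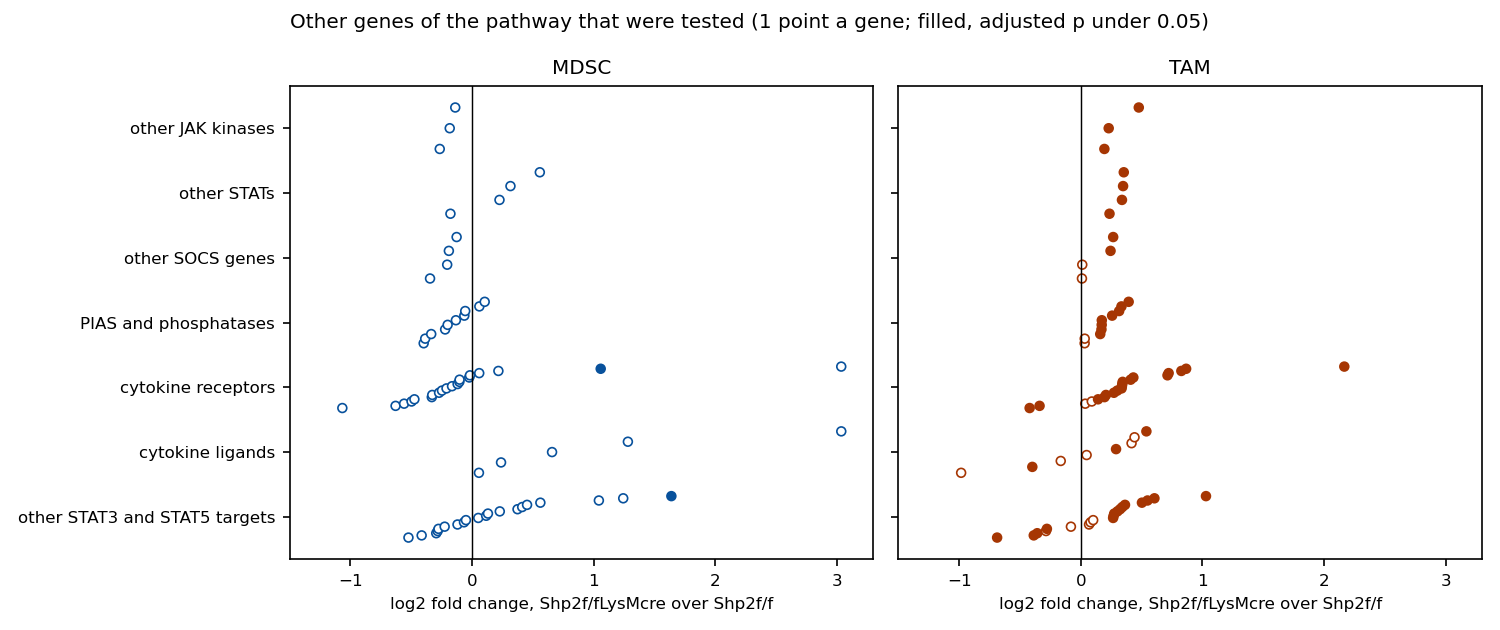
Log2 fold change of Shp2f/fLysMcre over Shp2f/f for the tested genes of 7 pathway lists in MDSC (left) and TAM (right), 1 point per gene, filled where the adjusted p was under 0.05. In TAM all 3 JAK and all 4 STAT points are filled and positive, and in MDSC only 2 points are filled, Epor and Vegfa.

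The kinases and STATs outside the 10 genes rose in TAM. All 3 other JAKs were called higher, namely Jak3 of the common gamma chain (0.48, SE 0.0370), Jak1 (0.23, SE 0.0374) and Tyk2 (0.19, SE 0.0400), with BH-adjusted p of at most 0.00190 (edgeR quasi-likelihood). Mean Jak3 was 89.4 ± 0.941 CPM in Shp2f/f and 128 ± 4.04 CPM in Shp2f/fLysMcre (SD, n = 3 each). All 4 other STATs were called higher as well, among them Stat2 of the interferon response (0.35, SE 0.0499), Stat6 of IL-4 signaling (0.35, SE 0.0361) and Stat4 (0.34, SE 0.112), with BH-adjusted p of at most 0.0262 (edgeR quasi-likelihood). Stat4 was low, at 132 to 193 counts per TAM library. With total-count scaling, 2 of 3 JAKs and 3 of 4 STATs were called, all higher, without Tyk2 and Stat4. In MDSC none of these 7 genes was called by edgeR, with log2 fold changes from -0.27 to 0.56.

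Other negative regulators rose in part. Of the 4 other SOCS genes in TAM, Socs6 (0.27, SE 0.0474, edgeR adjusted p = 7.30e-04) and Socs4 (0.24, SE 0.0474, edgeR adjusted p = 0.00127) were called higher, and the log2 fold changes of the other two were 0.01 each. Of 10 PIAS and phosphatase genes, 8 were called higher and 0 lower, and 4 were called with total-count scaling. Ptpn1, which encodes the phosphatase PTP1B acting on JAK2, had the largest change of these (0.39, SE 0.0367, edgeR adjusted p = 5.95e-06), followed by the STAT3 inhibitor Pias3 (0.33, SE 0.0733) and Ptprc, which encodes CD45 (0.32, SE 0.0412), with BH-adjusted p of at most 0.00282 (edgeR quasi-likelihood).

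Cytokine receptors were the list with the most calls in TAM, 16 higher and 2 lower of 20 tested. Il4ra of the IL-4 receptor went from 913 ± 8.68 to 1661 ± 61.8 CPM (SD, n = 3 each), which is 0.83 on the log2 scale (SE 0.0334, edgeR adjusted p = 1.55e-08). Lifr of the LIF receptor, a partner of gp130, went from 23.4 ± 0.913 to 43.7 ± 3.76 CPM (SD, n = 3 each), with 0.87 (SE 0.0653, edgeR adjusted p = 1.17e-06). Lepr of the leptin receptor had the largest log2 fold change, 2.17 (SE 0.274, edgeR adjusted p = 5.86e-05), at only 9 to 12 counts per Shp2f/f and 40 to 45 per Shp2f/fLysMcre library. In MDSC, Il4ra was lower in both Shp2f/fLysMcre libraries than in both Shp2f/f libraries, at 522 ± 74.0 against 804 ± 13.8 CPM (SD, n = 2 each), without passing (edgeR adjusted p = 0.0881). Epor of the erythropoietin receptor was the 1 receptor called in MDSC, at 8.90 ± 0.923 CPM in Shp2f/f and 18.6 ± 3.83 CPM in Shp2f/fLysMcre (SD, n = 2 each). Its log2 fold change was 1.06 (SE 0.183, edgeR adjusted p = 0.0421), which did not pass with total-count scaling (edgeR adjusted p = 0.0617), and the sum of 8 erythroid markers was 339 to 344 CPM in Shp2f/f and 734 to 841 CPM in Shp2f/fLysMcre.

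Of 12 cytokine genes, 8 were tested in TAM, with 2 higher, 1 lower and 5 neither. Osm, a gp130 cytokine made by myeloid cells, went from 372 ± 7.45 to 554 ± 26.9 CPM (SD, n = 3 each), which is 0.54 on the log2 scale (SE 0.0412, edgeR adjusted p = 1.31e-06). Il10, the anti-inflammatory ligand upstream of STAT3, had 0.29 (SE 0.0646, edgeR adjusted p = 0.00314), and Lif, another gp130 ligand, fell by 0.40 on the log2 scale (SE 0.0698, edgeR adjusted p = 6.37e-04).

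Targets of STAT3 and STAT5 outside the 10 genes split in both directions, 11 higher, 4 lower and 5 neither of 20 in TAM. Fos had the largest rise, from 1339.9 ± 65.2 to 2804 ± 104 CPM (SD, n = 3 each) and a log2 fold change of 1.03 (SE 0.0380, edgeR adjusted p = 8.61e-09), and it also belongs to the immediate early list, as does Junb. Cebpb, a transcription factor of myeloid cells, rose by 0.61 (SE 0.0477, edgeR adjusted p = 1.64e-06). The cell cycle gene Ccnd1 fell from 226 ± 3.35 to 143 ± 1.237 CPM (SD, n = 3 each), a log2 fold change of -0.69 (SE 0.0353, edgeR adjusted p = 8.18e-08). Beside it, the summed level of 12 proliferation genes was 1155 to 1162 CPM in TAM Shp2f/f and 639.9 to 681 CPM in TAM Shp2f/fLysMcre. In MDSC the 1 call was Vegfa, at 6.85 ± 0.992 CPM in Shp2f/f and 21.4 ± 2.18 CPM in Shp2f/fLysMcre (SD, n = 2 each), which is 1.64 on the log2 scale (SE 0.167, edgeR adjusted p = 0.0183).

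The genes whose levels ran most like each member were found by Pearson's r over libraries, among genes averaging 10 CPM or more, as a description of libraries that share cell type, genotype and handling. Over all 10 libraries, Socs3 was closest to Apobec1 (r = 0.996) and Mcl1 (r = 0.995) among 8849 genes, and Pim1 to Glul (r = 0.991) and Lamp1 (r = 0.990). Stat5b was closest to Bin2 (r = 0.999), and Stat5a to Iqce (r = 0.997). Cish was closest to Fbn1 (r = 0.988), which is on the stroma marker list. Over the 6 TAM libraries, Socs3 was closest to Sel1l3 (r = 0.9999) and Scpep1 (r = 0.9998) and Bcl6 to B4galt5 (r = 0.999), a comparison in which the genotype step sets most of the likeness.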

How the data were processed

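Poly(A)-selected, stranded libraries were sequenced on an Illumina NextSeq as short paired-end reads. The authors trimmed adapters with cutadapt 2.5, aligned reads to GRCm38 with STAR 2.7.3a, and counted them per Ensembl gene in featureCounts (Subread 1.6.2). They deposited raw counts, whole numbers of reads per gene that are not normalized, and these were used here. A second deposited table of normalized values was not used. The settings for strand and for reads with several matches are not given in the sources used here. Groups and replicate numbers came from the sample titles.

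Gene symbols and coordinates were taken from GENCODE for GRCm38, which matched 99.67% of the gene identifiers. In edgeR 4.0.16 (R 4.3.3), genes were kept by filterByExpr (minimum count 10), libraries were scaled by TMM, and the two-sided quasi-likelihood F test compared genotypes in the 4 MDSC or the 6 TAM libraries, and gave the interaction and the cell type effect over all 10. Calls were made at an adjusted p under 0.05, with Benjamini-Hochberg (BH) adjustment over all genes tested. SEs, intervals and fold changes come from these fits, so their TMM scaling differs slightly from that of the CPM levels. Libraries that share animals could not be matched and were treated as independent. Scripts were checked on simulated counts. Total counts of 28844660 to 38222998 per library leave counting error small beside the spread between replicates, except for the lowest genes, whose counts are given.

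The members and gene lists were chosen with earlier results of these data known, the Xist and Y-linked lists last. All 10 members, Ptpn11 and Lyz2 were named, as were up to 3 called genes per pathway list with the largest absolute changes, and a few further genes were named after their values were seen. Whether equal replicate numbers mark paired libraries is not known. Same-number correlations of deviations were 0.276 in MDSC and -0.145, 0.0898 and 0.0150 in TAM. With 2 libraries per MDSC group, different-number correlations must be the same value with the opposite sign (-0.276), so the MDSC value cannot decide it. Chi-square values per degree of freedom between replicates were 4.46 to 58.1, so replicates differed by more than sampling noise. Alternatives were DESeq2 1.42.0, its size factors in edgeR, total-count scaling, no filter or a filter of 1 CPM, a replicate block, 1 fit of all 10 libraries or of 1 genotype, limma 3.58.1 voom with weights per cell type, a threshold of 0.01, and leaving out each library. A comparison of the protein sequences was planned and not made.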

Additional observations from a re-analysis of the deposited data

Results flagged for a closer look

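The genotype effect differed between TAM and MDSC, by the interaction test over all 10 libraries (edgeR quasi-likelihood, BH-adjusted p under 0.05), for the genes given here, with the TAM effect minus the MDSC effect on the log2 scale. Among the members, the difference was 1.28 for Socs3, 0.65 for Bcl6, 0.59 for Pim1, 0.57 for Stat3, 0.53 for Stat5b and 0.51 for Stat5a, and -1.09 for Socs1 and -1.10 for Socs2. The values of Socs1 and Socs2 rest on MDSC levels of at most 4.14 CPM.

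The effect was also more positive in TAM for the kinases Jak3 (0.69) and Tyk2 (0.49), for Stat6 (0.56) and Socs6 (0.50), and for the phosphatases Ptpn1 (0.82) and Ptprc (0.68). Among receptors it was 1.49 for Il4ra, 1.39 for Lifr and 2.35 for Lepr, the last at 2 to 4 counts per MDSC library. It was 0.51 for Osm, 0.86 for Cebpb and 1.33 for Fos.

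The effect was more negative in TAM for the targeted gene Ptpn11 (-0.92), for Lif (-1.03), for Ccnd1 (-1.71) and for Vegfa (-1.06). The values of Lif and Ccnd1 rest on low MDSC counts, 33 to 79 per library for Lif and 118 to 405 for Ccnd1. Between the MDSC Shp2f/fLysMcre libraries, Ccnd1 varied by 48.9% of its mean (SD). Vegfa was higher in Shp2f/fLysMcre in both cell types, by 1.64 in MDSC and 0.55 in TAM, so its difference is one of size.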

How the results depend on the processing

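In MDSC, with 2 libraries a group, the counts depended on the fit. The edgeR test called 633 genes. DESeq2 called 1216, no filter on low counts gave 130, 1 fit of all 10 libraries gave 2666, a threshold of 0.01 gave 3, and leaving out 1 library gave 1 to 4406. Of the 10 members, 0 were called, 1 by DESeq2, 5 in the fit of all 10 libraries and 0 to 5 with 1 library left out. In TAM, 7257 genes were called and 4837 in the fit of all 10 libraries. The interaction was called for 4132 genes, for 2220 at a threshold of 0.01, and for 2446 to 7023 with 1 library left out, and voom called 6 of the 10 members.

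The replicate block (same-numbered libraries as pairs) called 2674 genes and 4 members in MDSC, namely Socs1, Socs2, Socs3 and Cish. Whether equal numbers mark pairs is not known. Under the block, Cish lost its call in TAM (edgeR adjusted p = 0.0563) and gained one for the interaction (edgeR adjusted p = 0.0117). No other member's call in TAM, the interaction or the cell type comparisons changed under the block. DESeq2, total-count scaling and no filter on low counts also called Cish for the interaction.

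Signs turned only for values that were not called. For Jak2 in MDSC, leaving out 1 library gave log2 fold changes of -0.25 to 0.30, and for Socs2 in TAM -0.092 to 0.046, with 0.0041 in the fit of all 10 libraries. For Jak2 the interaction ranged from -0.0065 to 0.50. In the cell type effect in Shp2f/fLysMcre, Jak2 ranged from -0.14 to 0.37 and Stat3 from -0.076 to 0.19, with -0.10 for Jak2 and -0.14 for Stat3 under total-count scaling. The cause was not tested. Over the genes named, 1177 of the alternative values kept direction and call, 76 lost the call, 25 gained it and 10 changed sign. With 1 library left in an arm, that library is assumed to vary like the others. In MDSC, Socs1, Socs2 and Cish had 31 to 371 counts per library and varied between the Shp2f/fLysMcre libraries by 42.6%, 45.3% and 52.2% of their means (SD).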
